A study of Mus musculus with 14 samples.

Results

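The Id, E-protein, Runx and ThPOK transcription factors were followed as 10 genes of the 27179 in the count table: Id2, Id3, Tcf3, Tcf4, Tcf12, Runx1, Runx2, Runx3, Cbfb and Zbtb7b. They were chosen by name and found through their Entrez gene identifiers. The 14 libraries hold bulk RNA of activated CD4 T cells of C57BL/6 mice, grown from naive cells for 3.5 days on antibodies to CD3 and CD28. Tfh5 (5 libraries) names a culture toward the follicular helper fate (CD4 T cells that support antibody-making B cells) with TGF-β at 5 ng/ml. TfhA (4 libraries, numbered 1, 2, 4 and 5) names such a culture with an antibody that blocks TGF-β, and Th1 (5 libraries) a culture toward interferon-γ-producing Th1 cells. The labels name no other allele or agent, nor whether separate mice or cultures were used for each library. The p-values therefore measure the spread between these libraries, which may be technical.

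These genes encode 3 linked groups of regulators. E proteins (E2A from Tcf3, E2-2 from Tcf4, HEB from Tcf12) are basic helix-loop-helix factors that bind DNA as dimers at E-boxes, and Id proteins, which lack the DNA-binding region, pair with them and keep them off DNA. Runx proteins bind DNA with their partner CBFβ (Cbfb), and ThPOK (Zbtb7b) sets the CD4 fate in the mouse thymus, where it and Runx3 repress each other's genes. In mouse helper T cells, Runx3 acts with T-bet on Ifng, and Id2 and Id3 restrain follicular helper cells.

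The make-up of Runx transcripts differed between all 3 cultures, with TfhA between Tfh5 and Th1. Runx3 was 1.75-fold lower in Tfh5 than in TfhA and 5.49-fold lower than in Th1, while Runx1 was 2.26-fold and 4.32-fold higher. In TfhA relative to Th1, Runx3 was 3.13-fold lower and Runx1 1.91-fold higher. Id3 was lowest and Tcf4, Tcf12 and Runx2 were highest in Tfh5. Id2 and Id3 were highest in TfhA. Zbtb7b did not pass the test in any of the 3 comparisons.

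Levels are counts per 1000000 (CPM) on library sizes scaled by the TMM method, as mean ± SD, with n = 5 for Tfh5, 4 for TfhA and 5 for Th1. Fold changes come from one edgeR quasi-likelihood fit over all 14 libraries. The threshold was 0.05 for the two-sided p after Benjamini-Hochberg adjustment across the 13075 genes tested, and log2 fold changes carry ± SE. All 10 genes cleared the filter on low counts. Library totals were 9766313 to 13316633 counts in Tfh5, 8805921 to 13027721 in TfhA and 13390058 to 16108059 in Th1. Genes of CD4 T cells were high in each library (10 markers, summed level 9330 to 9852 CPM in Tfh5, 6125 to 7309 in TfhA and 5555 to 5901 in Th1), while the CD8 chains were lower, with Cd8a at a mean of 0.04 CPM in Tfh5, 1.98 in TfhA and 0.47 in Th1 and Cd8b1 at 12.9 in Tfh5, 10.7 in TfhA and 17.8 in Th1. Myeloid markers (8 genes, Adgre1 at 0) summed to 54.1 to 122 CPM in Tfh5, 24.7 to 34.1 in TfhA and 121 to 179 in Th1. Ly6g carried most of that sum, at a mean of 83.8 CPM in Tfh5, 26.7 in TfhA and 144.5 in Th1. No other myeloid marker averaged above 2.02 CPM in a group (Itgam in TfhA). B cell markers (7 genes) summed to 0.97 to 3.05 CPM in Tfh5, 18.3 to 28.6 in TfhA and 25.6 to 33.9 in Th1. Ebf1 carried most of the B cell sum in TfhA (mean 17.2 CPM) and Th1 (29.3 CPM).

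Th1 replicate 1, TfhA replicate 2 and TfhA replicate 5 stood apart from their groups by transcript GC content. In a library, the median deviation of the GC-richest decile of genes from their group mean was compared with that of the GC-poorest decile. The log2 gap was 0.59 in Th1 replicate 1, 0.39 in TfhA replicate 2 and -0.43 in TfhA replicate 5, against -0.20 to 0.14 in the other libraries. In Th1 replicate 1, Tcf3, Zbtb7b, Runx3 and Id3, with 55.6% to 61.0% GC, were 0.29 to 0.40 above the Th1 mean on the log2 scale. Tcf12 and Cbfb, with 44.4% and 42.5% GC, were 0.29 and 0.35 below it. Where a GC correction, or leaving out the 3 libraries, ended a call or moved the log2 change of a called gene among the 10 by over 1.5 times, both values are given.

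**Figure D1:**
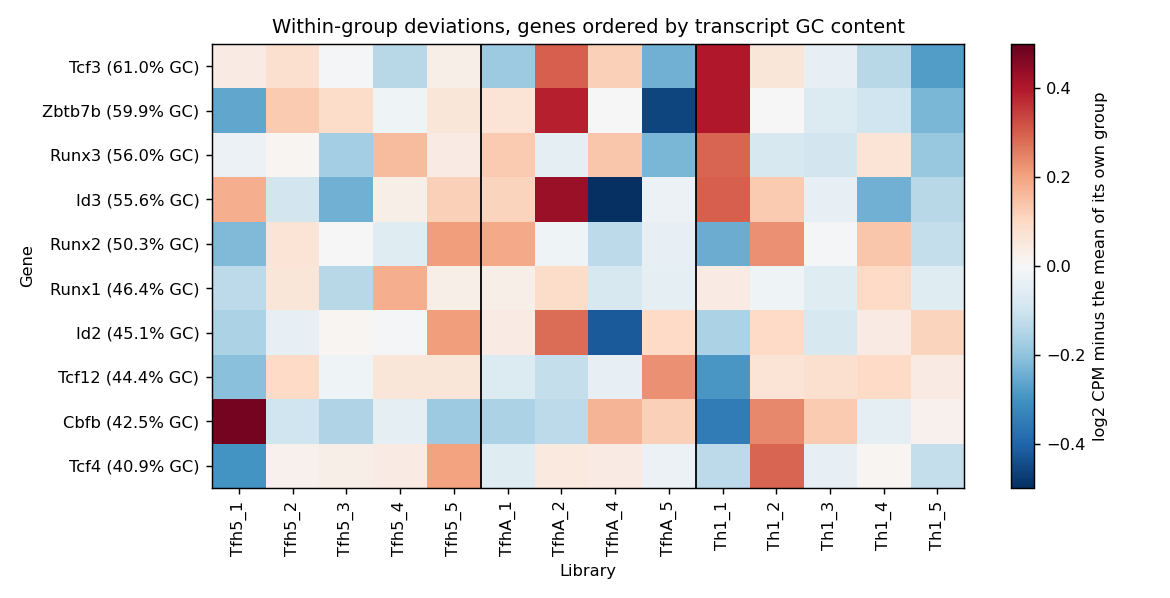
Deviation of each gene (rows, from high to low transcript GC content) in each library (columns) from the mean of its own group, in log2 CPM. The column of Th1 replicate 1 is positive for the 4 genes with 55.6% to 61.0% GC and negative for Cbfb and Tcf12, and the 0.48 of Cbfb in Tfh5 replicate 1 is the highest positive value.

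On GRCm38.p6 the RefSeq genes lie at chr12:25093799-25096092 (Id2), chr4:136143822-136145392 (Id3), chr10:80409541-80433976 (Tcf3), chr9:71844252-72111893 (Tcf12), chr16:92601466-92826074 (Runx1), chr17:44495987-44814797 (Runx2), chr4:135120645-135177990 (Runx3), chr8:105170674-105217989 (Cbfb) and chr3:89377644-89393673 (Zbtb7b).

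The windows before start sites of Runx genes are shown because members of the family moved in opposite directions, and that of Id2 as an example with an E-box. Each holds the 250 bases upstream of an annotated start, 5′ to 3′ on the strand of the gene, from RefSeq annotation of GRCm38.p6. Capitals mark the Runx core TGNGGT on either strand or the palindromic SMAD element GTCTAGAC in the Runx windows, and the E-box CANNTG in the Id2 window. Runx1 and Runx3 each have a distal and a proximal promoter. For Runx2 only the window shown was available, which need not be its only promoter. Counts per gene do not tell apart transcripts of different promoters.
Runx3 distal, chr4:135120395-135120644, + strand: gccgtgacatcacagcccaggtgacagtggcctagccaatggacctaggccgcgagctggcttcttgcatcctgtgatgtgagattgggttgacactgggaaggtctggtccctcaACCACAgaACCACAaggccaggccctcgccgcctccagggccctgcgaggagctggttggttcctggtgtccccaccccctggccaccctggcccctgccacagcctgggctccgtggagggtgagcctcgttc
Runx3 proximal, chr4:135152295-135152544, + strand: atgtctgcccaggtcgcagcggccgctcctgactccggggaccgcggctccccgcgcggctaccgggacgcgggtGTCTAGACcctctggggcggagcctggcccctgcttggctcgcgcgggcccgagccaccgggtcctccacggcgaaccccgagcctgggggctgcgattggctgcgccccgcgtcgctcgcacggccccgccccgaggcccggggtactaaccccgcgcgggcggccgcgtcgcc
Runx1 distal, chr16:92826075-92826324, - strand: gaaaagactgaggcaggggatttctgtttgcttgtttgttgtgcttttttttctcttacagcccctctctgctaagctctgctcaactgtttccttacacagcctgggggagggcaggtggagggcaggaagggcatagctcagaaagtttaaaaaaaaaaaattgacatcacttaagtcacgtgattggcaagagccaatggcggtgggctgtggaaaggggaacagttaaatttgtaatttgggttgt
Runx2, chr17:44814628-44814877, - strand: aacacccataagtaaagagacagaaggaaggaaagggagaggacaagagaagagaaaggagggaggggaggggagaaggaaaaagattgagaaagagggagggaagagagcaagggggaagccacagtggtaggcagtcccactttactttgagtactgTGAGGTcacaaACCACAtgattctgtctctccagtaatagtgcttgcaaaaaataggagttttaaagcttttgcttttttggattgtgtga
Id2, chr12:25096093-25096342, - strand: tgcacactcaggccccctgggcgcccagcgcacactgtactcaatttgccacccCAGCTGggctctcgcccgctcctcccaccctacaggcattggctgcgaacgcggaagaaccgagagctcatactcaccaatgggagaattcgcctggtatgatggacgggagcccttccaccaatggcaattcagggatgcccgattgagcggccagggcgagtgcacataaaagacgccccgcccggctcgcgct

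The distal Runx3 window holds a pair of ACCACA cores separated by 2 bases, starting 134 and 126 bases before the start site. The Runx2 window holds a TGAGGT and an ACCACA, which overlaps an E-box CACATG. At least 2 such cores occur in 10.4% of 32851 windows of the same length, and at least 1 in 40.1%. Neither Runx1 window holds one. The SMAD element is in the proximal Runx3 window and in 0.167% of all windows, while none of the other 13 windows of these genes has it. The windows cover 9 of the 10 genes, as none was available for Tcf4. The Id2 window has one E-box, CAGCTG, which overlaps a Runx core ACCCCA; at least one E-box is in 66.2% of all windows and CAGCTG in 13%. The Id3 window, at chr4:136143572-136143821, has neither an E-box nor a Runx core. These matches are descriptions of letters, not binding sites.

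In the comparison of Tfh5 with TfhA, TGF-β against its blockade, 5 of the 10 genes were higher and 3 were lower in Tfh5. Of all tested genes 27.4% were higher and 30.1% lower, or 57.5% either way. The libraries of the 2 groups did not overlap for 6 of the 10, as for 44.2% of all genes. In the comparison of TfhA with Th1, 6 were higher and 3 lower in TfhA, against 23.2% and 21.6% of all genes, or 44.8% either way. The groups did not overlap for 8 of the 10 and for 38.1% of all genes. In the comparison of Tfh5 with Th1, 6 were higher and 3 lower in Tfh5, against 31.5% and 33% of all genes, or 64.6% either way, with 8 of 10 and 50.2% of all genes without overlap. The median size of the log2 change, without its sign, was 0.66, 0.70 and 0.86 over the 10 genes in these 3 comparisons, and 0.49, 0.35 and 0.55 over all genes. The comparisons share libraries, so they do not support each other.

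**Figure D2:**
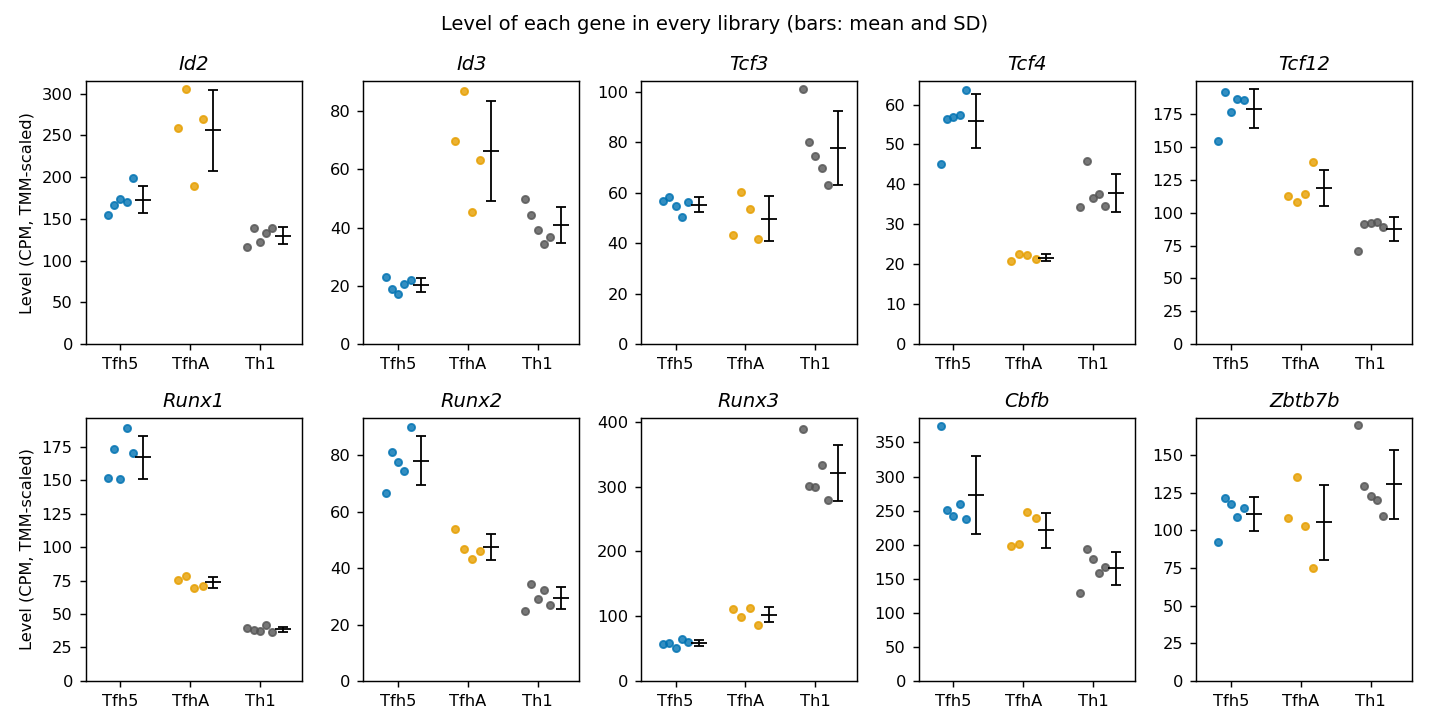
CPM of each gene in every library (points) with the group mean and SD (bars), Tfh5, TfhA and Th1 from left to right, each panel on its own axis from 0. Runx1 and Runx2 step down and Runx3 steps up from Tfh5 to Th1 with no overlap between neighbouring groups, while the Zbtb7b groups overlap.

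Id3, an inhibitor of E proteins, separated Tfh5 from the other cultures. It was at 23.0, 19.1, 17.2, 20.7 and 22.1 CPM in Tfh5 replicates 1 to 5. In TfhA replicates 1, 2, 4 and 5 it was at 69.6, 86.8, 45.5 and 63.0 CPM, and in Th1 replicates 1 to 5 at 49.7, 44.3, 39.2, 34.2 and 36.7 CPM. Every Tfh5 library was below every library of the other groups, and TfhA and Th1 overlapped through TfhA replicate 4. The log2 fold change was -1.70 ± 0.15 for Tfh5 over TfhA (3.25-fold lower, adjusted p = 5.86e-10) and -1.0 ± 0.14 for Tfh5 over Th1 (adjusted p = 1.42e-06). For TfhA over Th1 it was 0.70 ± 0.14 (adjusted p = 0.000353).

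Id2, the other inhibitor, was highest in TfhA. Its levels were 155, 167, 174, 171 and 199 CPM in Tfh5, and 259, 306, 189 and 270.2 CPM in TfhA in replicate order. In Th1 they were 116, 139, 122, 133 and 140 CPM. Th1 lay below both other groups without overlap, and Tfh5 and TfhA overlapped through Tfh5 replicate 5 and TfhA replicate 4. Id2 was 1.97-fold higher in TfhA than in Th1 (0.98 ± 0.11, adjusted p = 1.07e-07) and 1.33-fold higher in Tfh5 than in Th1 (0.41 ± 0.11, adjusted p = 0.00145). Between Tfh5 and TfhA the log2 fold change was -0.57 ± 0.11 (adjusted p = 0.000115), and -0.35 ± 0.12 without the 3 libraries set apart by GC content (adjusted p = 0.0184).

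Levels of different genes were compared per length, as RPKM (CPM per kilobase of summed GENCODE exons). Id2 exceeded Id3 by 4.93-fold to 7.43-fold in the Tfh5 libraries, 2.59-fold to 3.15-fold in TfhA and 1.71-fold to 2.86-fold in Th1. The Tfh5 range stood clear of both others. Summed Id2 and Id3 RPKM was 6.88 ± 1.40 times that of the 3 E-protein genes in TfhA, against 2.93 ± 0.36 times in Th1, with no overlap. In Tfh5 it was 3.02 ± 0.21 times, a range of 2.75 to 3.33 that lay within the Th1 range of 2.44 to 3.44. With the longest transcript as the length, the Tfh5 ratio was 1.76 to 2.11, TfhA 3.38 to 5.53 and Th1 1.97 to 2.52, so TfhA was again apart. No p is given for these ratios. Markers of γδ T cells, which can hold much Id3, had their highest sum in TfhA. Their 6 genes summed to 8.07 to 17.4 CPM in Tfh5, 42.7 to 107 in TfhA and 5.44 to 9.43 in Th1. Trdc carried most of that sum in TfhA, at a mean of 53.5 CPM against 11.75 in Tfh5 and 5.54 in Th1. Trgc2 and Trgc4 were also highest in TfhA, while Trgc1 was alike in TfhA (1.34 CPM) and Tfh5 (1.19). Sox13 was highest in Th1 (0.49 CPM), and Zbtb16 was at 0 in every TfhA library (0.175 CPM in Tfh5, 0.20 in Th1). The part of such cells in the Id2 and Id3 differences was not tested.

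The E-protein genes did not move together. Tcf4 was at 45.2, 56.4, 56.9, 57.3 and 63.7 CPM in Tfh5, at 20.8, 22.5, 22.3 and 21.2 CPM in TfhA, and at 34.2, 45.8, 36.5, 37.7 and 34.5 CPM in Th1. TfhA was lowest without overlap, and Tfh5 replicate 1 and Th1 replicate 2 made the other groups touch. Tcf4 was 2.58-fold higher in Tfh5 than in TfhA (1.37 ± 0.12, adjusted p = 4.65e-10) and 1.74-fold lower in TfhA than in Th1 (-0.80 ± 0.12, adjusted p = 5.87e-06). It was 1.48-fold higher in Tfh5 than in Th1 (0.57 ± 0.11, adjusted p = 5.41e-05). Tcf4 is also high in plasmacytoid dendritic cells, and their marker Siglech had no count in any library. Summed markers of dendritic cells (10 genes, Siglech and Clec9a at 0) were 11.5 to 16.7 CPM in Tfh5, 62.8 to 122 in TfhA and 239 to 306 in Th1. Cd74 and H2-Ab1 carried most of that sum, Xcr1 was highest in Tfh5 (2.01 CPM, against 0.27 in TfhA and 0.12 in Th1), and the part of such cells in the Tcf4 differences was not tested.

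Tcf12 ran in steps across the groups. It was at 154 to 192 CPM in Tfh5, 108 to 139 CPM in TfhA and 71.1 to 93.1 CPM in Th1, with no overlap. The log2 fold change was 0.60 ± 0.10 for Tfh5 over TfhA (adjusted p = 2e-05) and 0.44 ± 0.10 for TfhA over Th1 (adjusted p = 0.000992). For Tfh5 over Th1 it was 1.03 ± 0.10 (adjusted p = 9.1e-10).

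Tcf3 was highest in Th1, at 50.3 to 58.2 CPM in Tfh5, 41.6 to 60.5 CPM in TfhA and 63.1 to 101 CPM in Th1. Th1 did not overlap the other groups. Tfh5 and TfhA overlapped, and the log2 fold change of 0.15 ± 0.13 between them did not pass (adjusted p = 0.316, 95% interval -0.10 to 0.41). Tcf3 fell in TfhA (-0.65 ± 0.13, adjusted p = 0.000211) and in Tfh5 (-0.49 ± 0.12, adjusted p = 0.000849) relative to Th1. With GC correction these changes were smaller, -0.38 ± 0.09 and -0.28 ± 0.08, and still passed. Tcf3 made up 50.3% ± 2.86 of summed E-protein RPKM in Tfh5, 59.1% ± 6.14 in TfhA and 72.9% ± 4.81 in Th1. With the longest transcript as the length the shares were 35.0%, 44.0% and 58.7%.

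The 3 Runx genes moved in opposite directions. Runx3, the Runx factor of CD8 and Th1 cells, was at 57.0, 58.5, 51.6, 64.9 and 59.9 CPM in Tfh5 and at 112, 98.5, 113 and 87.0 CPM in TfhA. In Th1 it was at 390, 301, 299, 334 and 279 CPM. The groups did not overlap, and Th1 replicate 1 was the highest library. The log2 fold change was -0.81 ± 0.11 for Tfh5 over TfhA (adjusted p = 4.62e-07), -1.65 ± 0.11 for TfhA over Th1 (adjusted p = 8.36e-12) and -2.46 ± 0.10 for Tfh5 over Th1 (adjusted p = 1.98e-16). In bulk RNA, fewer cells with a transcript and less of it per cell cannot be told apart. Runx3 also marks CD8 and NK cells. Their 8 summed markers were 68.4 to 113 CPM in Tfh5, 78.4 to 110 in TfhA and 67.6 to 115 in Th1, with Ncr1 at 0 in all libraries. Single markers moved both ways: Klrk1 averaged 0.92 CPM in Tfh5, 23.1 in TfhA and 40.9 in Th1, Eomes 0.36 in Tfh5, 2.35 in TfhA and 3.59 in Th1, and Klrd1 73.4 in Tfh5, 40.3 in TfhA and 16.6 in Th1. Of the dendritic cell markers, Cd74 (6.84 CPM in Tfh5, 60.5 in TfhA and 174.9 in Th1) and H2-Ab1 (3.93 in Tfh5, 25.7 in TfhA and 75.9 in Th1) ran in the order of Runx3, while H2-Aa was highest in TfhA (0 CPM in Tfh5, 6.99 in TfhA and 0.36 in Th1). The part of either cell type in the Runx3 differences was not tested.

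Runx1, which serves blood stem cells, thymocytes and resting T cells, ran the other way. It was at 152, 173, 151, 189 and 170.2 CPM in Tfh5 and at 75.5, 78.8, 69.8 and 71.2 CPM in TfhA. In Th1 it was at 39.7, 38.1, 37.1, 41.5 and 36.9 CPM. Each group was clear of the next, and the coefficient of variation was 9.64% in Tfh5, 5.52% in TfhA and 4.95% in Th1. The log2 fold change was 1.18 ± 0.09 for Tfh5 over TfhA (adjusted p = 6.19e-11), 0.93 ± 0.09 for TfhA over Th1 (adjusted p = 8.89e-09) and 2.11 ± 0.09 for Tfh5 over Th1 (adjusted p = 1.53e-16).

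Runx2, known best for bone formation, followed the direction of Runx1. It was at 66.5 to 90.1 CPM in Tfh5, 43.2 to 53.9 CPM in TfhA and 24.7 to 34.4 CPM in Th1, again without overlap. The log2 fold change was 0.72 ± 0.11 for Tfh5 over TfhA (adjusted p = 7.91e-06), 0.69 ± 0.11 for TfhA over Th1 (adjusted p = 2.67e-05) and 1.40 ± 0.11 for Tfh5 over Th1 (adjusted p = 3.01e-11). The Runx2 locus overlaps Supt3 on the other strand, with 3165 counts over all libraries against 8502 for Runx2, and no source used here gives the strand setting of the counting.

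Per length, the make-up of the Runx family differed in each library group. Runx3 gave 34.0% ± 1.52 of summed Runx RPKM in Tfh5, 63.9% ± 2.96 in TfhA and 90.6% ± 1.24 in Th1. Runx1 gave 40.4% ± 1.32 in Tfh5, 19.3% ± 1.74 in TfhA and 4.58% ± 0.39 in Th1, and Runx2 gave 25.7% ± 2.38, 16.8% ± 1.55 and 4.79% ± 0.90 in the same groups. No 2 groups overlapped in any of these shares. The sum of the 3 was 31.6 to 37.1 RPKM in Tfh5 and 28.5 to 34.7 in TfhA, which overlapped, and 61.9 to 84.0 RPKM in Th1. With the longest transcript as the length, the sums of Tfh5 (50.9 to 60.5 RPKM) and TfhA (41.7 to 50.01 RPKM) did not overlap. By that length, Runx3 gave 27.1% in Tfh5, 56.8% in TfhA and 88.0% in Th1, and Runx1 51.2%, 27.3% and 7.09%.

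**Figure D3:**
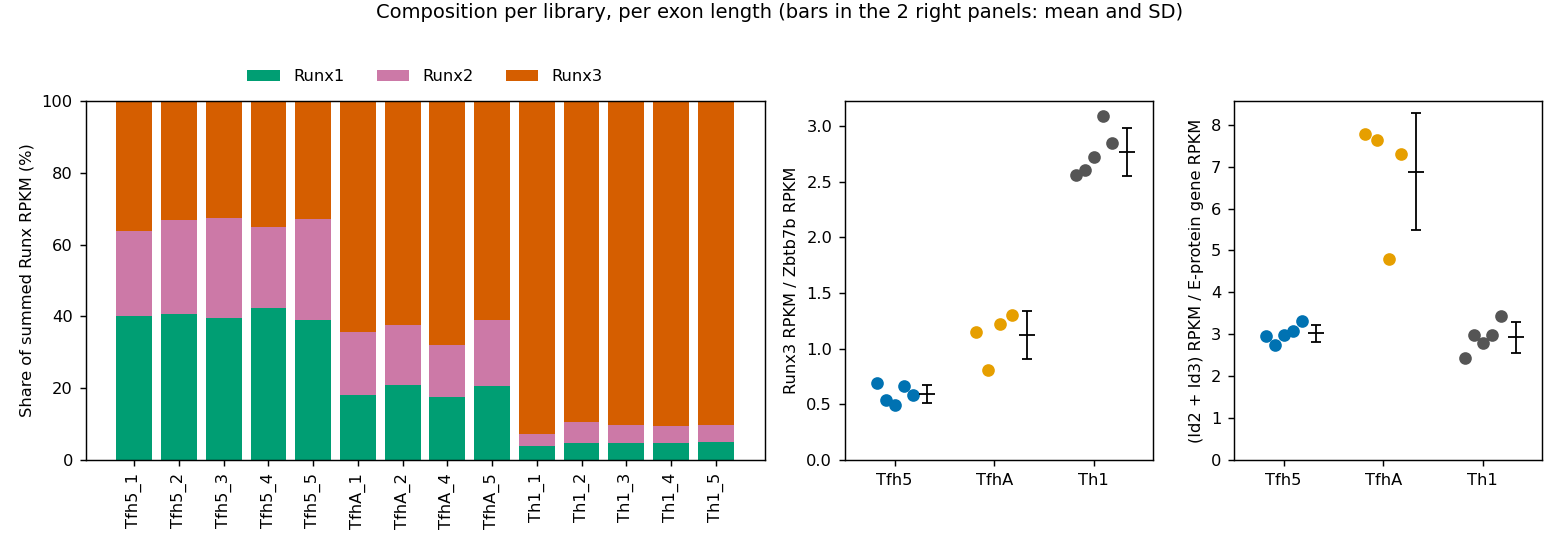
Left, share of Runx1, Runx2 and Runx3 in their summed RPKM in each library, with Runx3 near 34% in Tfh5, 64% in TfhA and 91% in Th1. Middle and right, per library with mean and SD, the RPKM ratio of Runx3 to Zbtb7b, lowest in Tfh5, and of summed Id2 and Id3 to summed Tcf3, Tcf4 and Tcf12, highest in TfhA.

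Cbfb, the shared partner of Runx proteins, rose less. It was at 374, 251, 242, 259 and 238 CPM in Tfh5, at 197, 201, 247 and 239 CPM in TfhA and at 129, 193, 179, 159 and 167 CPM in Th1. Tfh5 replicate 1 was far above its group, and TfhA replicates 4 and 5 reached the other Tfh5 libraries. Between Tfh5 and TfhA the log2 fold change was 0.30 ± 0.13 with an adjusted p of 0.0479. This call was lost without Tfh5 replicate 1 (0.17 ± 0.11, adjusted p = 0.191), Tfh5 replicate 4, TfhA replicates 1 or 2, or Th1 replicates 3, 4 or 5. It was also lost without the 3 libraries set apart by GC content (adjusted p = 0.0781), with DESeq2 (0.0506), with library totals in place of TMM (0.0743) and with the replicate block (0.08). Cbfb was higher in Tfh5 than in Th1 (0.72 ± 0.12, adjusted p = 1.32e-05) and in TfhA than in Th1 (0.42 ± 0.13, adjusted p = 0.00972). TfhA over Th1 stood at a log2 fold change of 0.28 ± 0.11 with GC correction (adjusted p = 0.0506) and 0.34 ± 0.15 without the 3 libraries set apart by GC content (adjusted p = 0.0979). The call in TfhA over Th1 was also lost with the replicate block and GC correction together (adjusted p = 0.102). Per length, Cbfb was 1.88 to 3.41 times the summed Runx genes in Tfh5, 1.63 to 2.41 times in TfhA and 0.44 to 0.82 times in Th1.

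Zbtb7b, which encodes ThPOK, was at 92.5, 121, 117, 109 and 115 CPM in Tfh5 and at 108, 135, 103 and 74.8 CPM in TfhA. In Th1 it was at 170.2, 129, 123, 121 and 109.7 CPM. The 3 groups overlapped, and the extremes, TfhA replicate 5 and Th1 replicate 1, are libraries set apart by GC content. The log2 fold change was 0.07 ± 0.14 for Tfh5 over TfhA (adjusted p = 0.67, 95% interval -0.19 to 0.34). It was -0.31 ± 0.14 for TfhA over Th1 (adjusted p = 0.071, -0.58 to -0.04) and -0.23 ± 0.13 for Tfh5 over Th1 (adjusted p = 0.115, -0.49 to 0.02). With GC correction these became 0.04 ± 0.09, -0.06 ± 0.09 and -0.03 ± 0.09. TfhA against Th1 passed without TfhA replicate 2 (-0.45 ± 0.14, adjusted p = 0.00895), without Th1 replicate 5 (adjusted p = 0.039) and with no filter on low counts (adjusted p = 0.0165), as did Tfh5 against Th1 with no filter (adjusted p = 0.0453). Zbtb7b overlaps the antisense gene Gm15417, with 1358 counts over all libraries against 20172.

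Per length, Runx3 stood at 0.59 ± 0.08 times Zbtb7b in Tfh5, 1.12 ± 0.21 times in TfhA and 2.76 ± 0.21 times in Th1. The ranges, 0.49 to 0.69, 0.81 to 1.30 and 2.56 to 3.09, did not overlap.

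**Figure D4:**
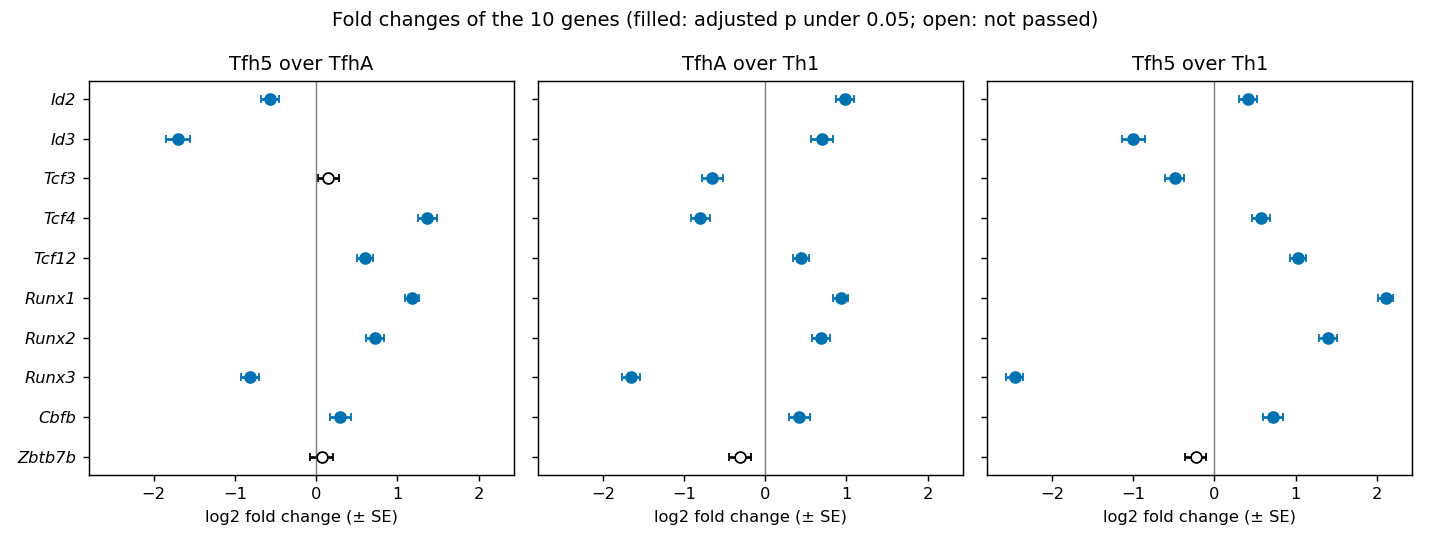
Log2 fold change of each gene with its SE, for Tfh5 over TfhA, TfhA over Th1 and Tfh5 over Th1. Filled points passed at an adjusted p under 0.05, and open points, Tcf3 in the first panel and Zbtb7b in all 3, did not.

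Among the 10 genes, the order of RPKM differed between the cultures. In Tfh5, Cbfb (78.4 ± 16.4 RPKM) and Id2 (71.0 ± 6.66) were highest and overlapped, ahead of Zbtb7b (19.9 ± 2.02), which by the longest transcript (25.6 RPKM) came behind Runx1 (28.5) and Tcf12 (28.4). In TfhA, Id2 (105 ± 20.1) was above Cbfb (63.6 ± 7.37) and Id3 (37.0 ± 9.53), without overlap among these 3. In Th1, Runx3 (64.1 ± 8.65), Id2 (53.3 ± 4.33) and Cbfb (47.5 ± 7.00) were highest, each overlapping its neighbour, though by the longest transcript Runx3 (71.9 to 100.4 RPKM) was clear of Id2 (58.8 to 71.0). Tcf4 was lowest in each group, at 2.04 ± 0.24 RPKM in Tfh5, 0.79 ± 0.03 in TfhA and 1.38 ± 0.17 in Th1, with either length. These orders depend on which transcripts are made, which the counts do not tell.

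Genes that pair with or resemble these factors were taken as a list of 16, of which 8 could be tested. In Tfh5 over TfhA 2 rose and 4 fell, in TfhA over Th1 2 rose and 2 fell, and in Tfh5 over Th1 3 rose and 5 fell. Of all genes tested, 57.5%, 44.8% and 64.6% passed in these comparisons. Their median log2 changes were -0.76, 0.29 and -1.49, with -0.01, 0.03 and -0.01 (to 2 decimals) over all genes. The other Id genes were near absent: Id1 averaged at most 0.43 CPM in a group and Id4 had no count. Bhlhe40, a repressor that sustains cytokine production, was at 191 ± 22.9 CPM in Tfh5, 374 ± 58.7 in TfhA and 1236 ± 29.9 in Th1, and fell in each comparison (log2 -0.97 ± 0.10, -1.72 ± 0.11 and -2.69 ± 0.10). The LIM-domain adaptor Lmo4 rose in each (0.96 ± 0.14, 0.51 ± 0.14 and 1.48 ± 0.14), though in TfhA over Th1 not without TfhA replicate 4 (0.30 ± 0.13, adjusted p = 0.0573). Its partner Ldb1 was 1.79-fold higher in Tfh5 than in Th1, and Lmo2 3.39-fold lower in Tfh5 than in TfhA.

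The bHLH gene Msc (musculin) had no count in any Tfh5 library, against 6.01 ± 1.03 CPM in TfhA and 3.62 ± 0.71 CPM in Th1. It was at least 109.8-fold lower in Tfh5 than in TfhA and at least 66.1-fold lower than in Th1, taking 3 counts summed over all Tfh5 libraries as the floor, which covers counting error only. Msc in TfhA over Th1 passed at 0.73 ± 0.26 (adjusted p = 0.0287), but not without any one of Th1 replicates 1, 2 or 5 or TfhA replicates 1 or 5 (adjusted p up to 0.105), without the 3 libraries set apart by GC content (0.177), with the replicate block (0.0537) or with no filter (0.0607). Lyl1, a bHLH partner of E proteins, fell to 0.71 ± 0.62 CPM in Tfh5 and 0.99 ± 0.77 CPM in TfhA, against 7.03 ± 1.88 CPM in Th1. Its log2 change in TfhA over Th1 was -2.80 ± 0.49, and -3.53 ± 0.55 without TfhA replicate 2.

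Of 19 genes linked to E and Id proteins in lymphocytes, 16 could be tested, and 11 rose and 1 fell in Tfh5 over TfhA, with a median of 0.89. Over all genes 27.4% rose and 30.1% fell in that comparison. In TfhA over Th1 4 rose and 6 fell (median 0.01), and in Tfh5 over Th1 10 rose and 4 fell (median 0.68), where 44.8% and 64.6% of all genes passed. Cxcr5, the follicle-homing receptor, was 40.1-fold higher in Tfh5 than in TfhA, Bcl6 6.36-fold and Tcf7 3.16-fold. In TfhA over Th1, the homing regulator Klf2 was 11.02-fold and Tcf7 5.33-fold higher, while the receptor Il7r was 2.30-fold and the cytokine inhibitor Socs1 2.005-fold lower. In Tfh5 over Th1, Cxcr5 was 44.3-fold, Klf2 20.4-fold and Tcf7 16.8-fold higher. The thymic E-protein targets Rag2 and Ptcra had no count, and Rag1 had 5 in all libraries.

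Of 19 genes linked to Runx or ThPOK, 3 of them also on the previous list, 18 could be tested. In Tfh5 over TfhA 6 rose and 7 fell, in TfhA over Th1 4 rose and 6 fell, and in Tfh5 over Th1 8 rose and 9 fell, with medians of 0.13, 0.15 and -0.37, where 57.5%, 44.8% and 64.6% of all genes passed. Cd4 itself was at 547 ± 26.6 CPM in Tfh5, 399 ± 30.5 in TfhA and 460.2 ± 23.9 in Th1. In Tfh5 relative to TfhA, the cytotoxic genes Gzmb (log2 -8.21 ± 0.40, -9.33 ± 0.21 without Tfh5 replicate 1) and Prf1 (-3.18 ± 0.46) fell, as did Tbx21 (-5.03 ± 0.15) and Ifng (-4.34 ± 0.34). Whether reads of Gzmb were shared with other granzyme genes was not tested. In TfhA relative to Th1, Ifng (-5.18 ± 0.24) and Tbx21 (-1.98 ± 0.12) fell, and Tox (1.63 ± 0.17) and Gata3 (1.51 ± 0.15) rose. There Gzmb was higher in TfhA (1.34 ± 0.29, adjusted p = 0.000521), against the direction of Runx3, and Prf1 did not pass (0.49 ± 0.38, adjusted p = 0.309). In Tfh5 relative to Th1, Ifng (-9.52 ± 0.30), Tbx21 (-7.01 ± 0.15) and Gzmb (-6.87 ± 0.38, -7.99 ± 0.20 without Tfh5 replicate 1) fell, and the integrin gene Itgae rose (3.80 ± 0.28).

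The last list held 12 genes taken for inputs to Id genes, from the SMAD path and the Egr factors. It includes Smad6 and Smad7, which inhibit the SMAD path, so its counts mix activators and inhibitors. Smad6 averaged at most 2.24 CPM in a group. In Tfh5 over TfhA 9 rose and none fell, with the Egr genes not passing (log2 0.37 for Egr1, 0.12 for Egr2 and 0.20 for Egr3). In TfhA over Th1 6 rose and 2 fell, and in Tfh5 over Th1 all 12 rose, with medians of 0.62, 0.28 and 2.07. The share of all genes that rose was 27.4%, 23.2% and 31.5%. Egr2 was at 56.3 ± 19.3 CPM in Tfh5, 51.9 ± 13.02 in TfhA and 10.2 ± 2.45 in Th1. In TfhA over Th1, Egr2 was 5.07-fold, Smad3 3.54-fold, Egr1 3.01-fold and Egr3 2.74-fold higher. In Tfh5 over TfhA, the receptors Tgfbr1 and Tgfbr2 were 7.13-fold and 3.75-fold, Smad7 6.40-fold and Smad5 1.91-fold higher. In Tfh5 over Th1, Tgfbr1 was 7.79-fold, Smad3 5.70-fold, Egr2 5.49-fold and Smad7 4.75-fold higher.

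Over the 14 libraries, the genes with the pattern most like each of 4 members were taken by Pearson's r of log2 CPM among 10172 others. For Runx3 they were Ndrg2 (r = 0.996), Lta (0.995) and Irf1 (0.991). Lta, the cytokine lymphotoxin-α, was at 61.3 ± 3.88 CPM in Tfh5, 155 ± 33.1 in TfhA and 1161 ± 86.0 in Th1. For Id3 they were Zfpm1 (0.980), Shmt2 (0.970) and Gas2 (0.970), and Zfpm1, the GATA cofactor FOG-1, was at 13.9 ± 2.84, 47.8 ± 15.5 and 28.5 ± 5.80 CPM in Tfh5, TfhA and Th1. For Id2 they were Ikzf1 (0.967), Calcrl (0.962) and Tespa1 (0.955), with Ikzf1, which encodes Ikaros, at 637 ± 25.3 CPM in Tfh5, 916 ± 108 in TfhA and 499.9 ± 28.0 in Th1. For Zbtb7b they were Septin9 (0.945), Strn4 (0.911) and Btd (0.905). These libraries share 3 cultures and the GC differences given above, so such an r is a description.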

How the data were processed

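The 14 files of single libraries and the table of the whole series hold raw counts per Entrez gene, as the authors deposited them without normalization. All 14 single files were identical to their columns, and 0 columns belonged to other samples. Per the submitters' processing notes, the tools were STAR 2.7.2b and featureCounts 1.6.4 and the build mm10. For annotation, strand setting and multi-mapped reads, nothing is given in the sources used here. Per the labels' protocols, sorted cells were lysed in Trizol LS and libraries made with the Lexogen SENSE kit from 100 ng RNA.

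Counts were fitted with R 4.3.3, edgeR 4.0.16 and limma 3.58.1 (group means, filterByExpr, TMM, no covariate), and DESeq2 1.42.0 was an alternative. The script was tested on simulated counts. The biological coefficient of variation common to all genes was 14.25%, and replicates differed by 4.3 to 32.63 times counting error (chi-square per degree of freedom, 26 pairs). Symbols and positions come from RefSeq GRCm38.p6 (25275 of 27179 genes), exon lengths and GC content from GENCODE M21. The 95% intervals are the log2 fold change ± 1.96 SE. GC content was known for 90.8% of tested genes and corrected through a smooth per library. The smooth used deviations from the mean over all 14 libraries, so it also takes out GC-related differences between the cultures.

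Members and gene lists were chosen with earlier results of these data known. Named beside the 10 members were up to 4 called genes per list and comparison, with at least 5 CPM in a group and ordered by change, plus the 3 genes (predicted ones left out) most like each of Id2, Id3, Runx3 and Zbtb7b. Id1, Id4, Rag1, Rag2, Ptcra, Cd4 and Smad6 were named after their values were seen. The same holds for the Egr genes of Tfh5 over TfhA and for Gzmb and Prf1 of TfhA over Th1. Some listed genes that enter the counts are not reported here by name. GC correction, the fit without 3 libraries and the second gene length were added after seeing the data.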

Additional observations from a re-analysis of the deposited data

Results flagged for a closer look

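Of 30 sets of values (10 genes in 3 groups), 2 held a library far from the others, and chance flags about 1 in 20 sets. Cbfb was at 374 CPM in Tfh5 replicate 1, against 238 to 259 CPM in the other Tfh5 libraries. Tcf12 was at 71.1 CPM in Th1 replicate 1, the Th1 library with the widest GC gap, against 89.3 to 93.1 CPM in the other Th1 libraries. The part of GC content in this value was not tested.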

How the results depend on the processing

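The 10 genes in 3 comparisons were recomputed under 23 alternatives. In 672 of 690 cases direction and side of the threshold were kept or the gene stayed uncalled, in 14 a call was lost and in 4 one was gained, all in Cbfb and Zbtb7b. The number of genes passing was 7 to 8 in Tfh5 over TfhA, 8 to 10 in TfhA over Th1 and 9 to 10 in Tfh5 over Th1, and the counts of the 4 lists and of all genes moved by less than 1.5 times. Deviations of same-numbered libraries correlated at -0.161 to 0.331 over 13 pairs (median 0.0485). Those of differently numbered libraries correlated at -0.703 to 0.595 over 52 pairs (median 0.00586). Both ends of the latter range join Th1 replicate 1 with a TfhA library (replicate 5 and replicate 2), all set apart by GC content. Such correlations cannot tell whether libraries of the same number share mice or a batch. With replicate number as a block, 7 of the 10 genes passed in Tfh5 over TfhA (Cbfb at adjusted p = 0.08), and 9 in each other comparison. The lowest count of any of the 10 genes in a library was 182.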
